A study of Mus musculus with 45 samples.

Results

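RA-treated organoids were compared with untreated organoids 30 h after the start of treatment, across all genes of the count table. The comparison takes in 6 of the 45 libraries of the series, 3 RA-treated and 3 untreated, chosen by their labels alone. Of 54532 genes in the table, 16631 had enough counts to be tested. The organoids were grown from R1 cells, a wild-type mouse embryonic stem cell line, by clonal growth in Matrigel and in the serum-free medium N2B27. At day 2 they either received 250 nM all-trans retinoic acid (RA) or were left without it. By their description both groups otherwise had the same cell line, gel and medium. The submitters' treatment protocol has 250 µM instead, and the lower dose is that of the design text. The 3 samples of a group are described as biological replicates, all from this single cell line. The p-values therefore set a difference against the spread between these samples only. Whole organoids were sequenced in bulk.

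Retinoic acid is a small lipophilic signal made from vitamin A that enters the nucleus and binds retinoic acid receptors, which sit on DNA as partners of retinoid X receptors. Receptors without ligand recruit corepressors, and ligand exchanges these for coactivators. In the vertebrate embryo RA from the somites patterns the posterior hindbrain and spinal cord through the Hox genes, and enzymes of the Cyp26 family clear it from the forebrain and midbrain. In cultured pluripotent cells RA is a widely used inducer of neural differentiation.

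The 3 RA-treated libraries held 30009417 to 32449302 counts and the 3 untreated ones 17298632 to 28306086, so that a detection limit of 3 counts stood for 0.0902 to 0.183 CPM. CPM are counts per 1000000 counts of a library, scaled by TMM over the 45 libraries, and such limits cover counting error only. One RA-treated library stood apart from its group. On log2(CPM + 1) of 14071 genes, RA replicates 1 and 3 had a Pearson's r of 0.996 with each other, whereas replicate 2 had 0.967 with replicate 1 and 0.960 with replicate 3. Only 10 genes differed more than 2-fold between replicates 1 and 3, and 7 to 16 between 2 untreated libraries, but replicate 2 was more than 2-fold above the mean of the other RA-treated libraries for 563 genes and below it for 358. The first principal component, with 71.5% of the variance, separated treated from untreated libraries. The second, with 22.6%, separated RA replicate 2 from RA replicates 1 and 3, with the untreated libraries between them. RA replicates 2 and 3 carry library numbers above 10000 and the other 4 libraries at 30 h numbers below it. With this library number series as a term in a fit, the RA effect rests on RA replicate 1 alone against the untreated libraries. Calls lost in that fit can therefore not be read as an effect of the series. In every replicate pair the counts differed by more than sampling noise (chi-square of 4.67 or more per gene), and all 6 libraries were kept as separate samples.

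Placed among all 45 libraries, the other 5 at 30 h stood apart in several measures. The median shift of each chromosome's genes was taken as log2 of the CPM relative to the mean of the 18 h libraries, minus that of the other autosomes. In the 5 libraries at 30 h other than RA replicate 2, and in RA replicate 3 at 8 h, genes on chromosome 1 were shifted by 0.32 to 0.35, on chromosome 8 by 0.32 to 0.39 and on chromosome 14 by 0.38 to 0.46. RA replicate 2 had shifts of -0.09, 0.05 and -0.05 on these chromosomes, and the remaining 38 libraries lay between -0.16 and 0.16 on all of them. The same 6 libraries had the lowest mean level of 4 Y chromosome genes (Ddx3y, Eif2s3y, Kdm5d and Uty), 1.22 to 3.65 CPM, against 29.1 CPM in RA replicate 2 and 22.9 to 89.5 CPM in the other 38. Rhox5 was at 6.95 to 11.8 CPM in the 6, at 127 CPM in RA replicate 2 and at 57.3 to 289 CPM elsewhere. Xist, the RNA that coats the inactive X chromosome, was at 1.70 to 4.44 CPM in the 6, at 53.9 CPM in RA replicate 2 and at 15.5 to 211 CPM elsewhere. In these measures RA replicate 2 was thus the one library at 30 h within or near the range of most of the series. On chromosome X it was the reverse, with a shift of -0.15 in RA replicate 2, -0.01 to 0.08 in the 6 and -0.09 to 0.08 in the other 38. What sets the 6 libraries apart was not tested. All 3 untreated libraries at 30 h are among the 6, and calls below that depend on RA replicate 2 are therefore given with and without it.

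**Figure D1:**
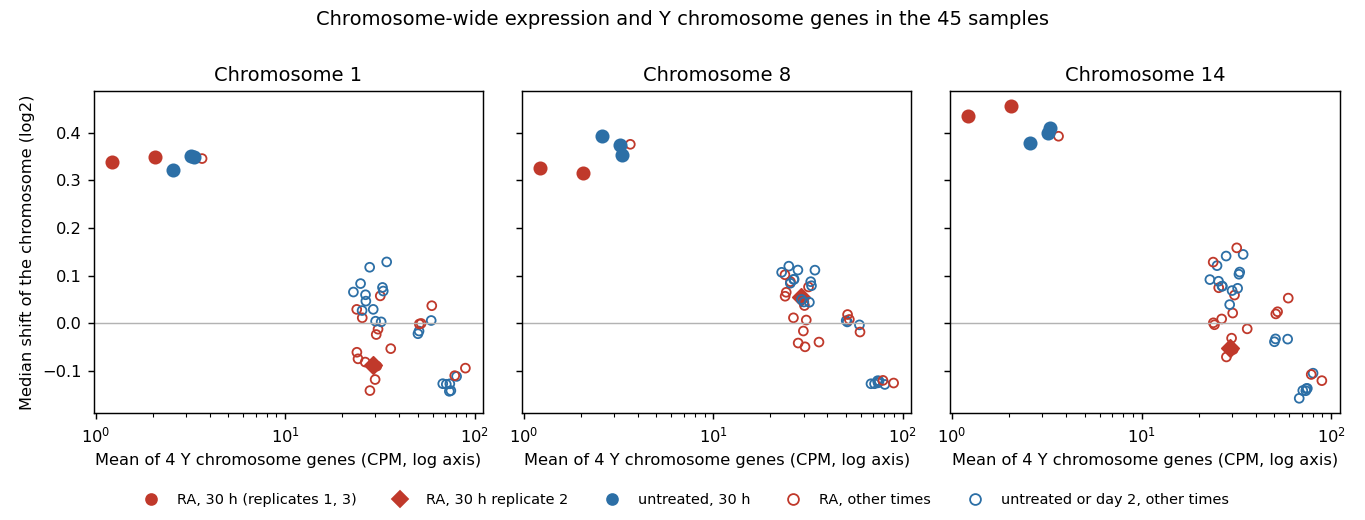
Median expression shift of the genes on chromosomes 1, 8 and 14 (y axis, log2 relative to the 18 h mean and the other autosomes) against the mean of 4 Y chromosome genes (x axis, CPM, log scale), with 1 point for each of the 45 samples. The 6 points at the upper left are the untreated samples and RA replicates 1 and 3 at 30 h, and RA replicate 3 at 8 h, while RA replicate 2 at 30 h lies among the other 38.

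With RA, 994 genes rose (5.98% of those tested) and 412 fell (2.48%), where a gene rose or fell if its adjusted p was under 0.01 and its log2 fold change above 1 or below -1 in the quasi-likelihood test of edgeR, adjusted over all genes by Benjamini-Hochberg, the test behind every adjusted p given here. Protein-coding genes made up 923 of the genes that rose and 365 of those that fell. The shares of 5.98% and 2.48% are the background for every count on a gene list below. Without RA replicate 2, 1508 genes rose (8.96% of 16832 tested) and 764 fell (4.54%). Of the genes called with all 6 libraries, 956 that rose and 389 that fell were called again without it, 38 and 23 were lost, and 0 turned direction. Among genes tested both times, 512 more rose and 358 more fell. Leaving out an untreated library instead left 386 to 428 rises and 224 to 250 falls, leaving out RA replicate 1 left 602 and 282, and leaving out RA replicate 3 left 852 and 359. The median standard error of the log2 fold change was 0.19 with all libraries and 0.11 without RA replicate 2. The treated and untreated libraries did not overlap for 8040 genes, 48.3% of those tested, and for all 1406 called genes. Among the called genes that rose, RA replicate 2 was the highest of the RA-treated libraries for 463 and the lowest for 389. These are whole organoids, so that more cells of a type and more RNA per cell cannot be told apart.

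The largest rises included 5 Hox genes and several genes that were almost silent without RA. Among called genes with non-overlapping groups and a mean of at least 1 CPM, the 10 largest included those of ccdc198, Meox1, Hoxc5, Hoxc4, Stra8, Hoxb5, Hoxb8, Sost and Hoxb4. Stra8 (chr6:34920163-34939344 in GRCm38, as all coordinates here), a gene named for its stimulation by RA and needed for entry into meiosis in germ cells, was at 517, 397 and 497 CPM in RA replicates 1, 2 and 3 and at 1.92, 2.07 and 5.41 CPM in untreated replicates 1, 2 and 3, the order kept throughout. All 3 treated libraries lay far above all untreated ones, with RA replicate 2 the lowest of them. Its log2 fold change was 7.24 ± 0.40 (SE, adjusted p = 5e-05), where SE is the standard error, 7.34 without RA replicate 2 and 7.85 without untreated replicate 3.

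ccdc198, spelled as in the annotation, had 4.89, 14.7 and 4.54 CPM with RA and a single count in the 3 untreated libraries, a ratio of CPM of 506 (exact 95% counting interval 90.5 to 19995). Meox1, a homeobox gene of the somites, had 17.7, 37.5 and 13.6 CPM with RA and 0, 0.122 and 0.204 CPM without. The highest treated library was RA replicate 2 for both genes, and the log2 fold change of Meox1 was 7.83 ± 0.73 (SE, adjusted p = 0.00041), with 7.04 without untreated replicate 1 and 8.77 without untreated replicate 3. Sost, which encodes a secreted antagonist of Wnt and BMP signals, reached 1.50, 3.68 and 2.07 CPM with RA against 1 count in the untreated libraries, a ratio of 152 (exact 95% counting interval 27.1 to 6042). Both Sost and ccdc198 lost the call without 1 of the untreated libraries (adjusted p = 0.011 each, without untreated replicate 1 and 3 in turn).

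The 10 largest falls under the same rule were those of Foxd3, Btla, Fgf5, Pim2, Grm6, Sema6a, Spon1, Otx2, Slc35d3 and Vrtn. Pim2, which encodes a serine/threonine kinase that promotes survival, was at 936, 963 and 896 CPM without RA and 27.8, 26.2 and 25.8 CPM with it. All 3 treated libraries were close together for this gene, RA replicate 2 included, and its log2 fold change of -5.13 ± 0.10 (SE, adjusted p = 1e-06) had the smallest p of all genes tested. Foxd3, a forkhead factor of the epiblast and later of the neural crest, was at 33.2, 35.0 and 38.8 CPM without RA and 0.163, 0.858 and 0.0902 CPM with it. Among treated libraries RA replicate 2 was the highest, and the log2 fold change of -6.56 ± 0.56 (SE, adjusted p = 0.00029) became -8.12 without it.

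Sema6a, which encodes a transmembrane semaphorin, was at 167, 180.0 and 164 CPM without RA and 4.47, 12.6 and 4.96 CPM with it. The groups were apart with RA replicate 2 the highest treated library, and the log2 fold change was -4.52 ± 0.41 (SE, adjusted p = 0.00037), and -5.19 without it. Vrtn, a gene linked to vertebral number in livestock, was at 103, 99.5 and 101 CPM without RA and 7.67, 3.65 and 7.94 CPM with it. Here RA replicate 2 was the lowest treated library, and the log2 fold change was -3.98 ± 0.27 (SE, adjusted p = 0.00011). Spon1, which encodes an extracellular matrix protein of the floor plate, fell by 4.35 on the log2 scale and by 5.39 without RA replicate 2. Btla, known as a lymphocyte receptor gene, fell by 5.85, Grm6, known from the retina as a glutamate receptor gene, by 4.60 (6.45 without RA replicate 2), and Slc35d3, of a family of nucleotide sugar transporters, by 4.07.

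**Figure D2:**
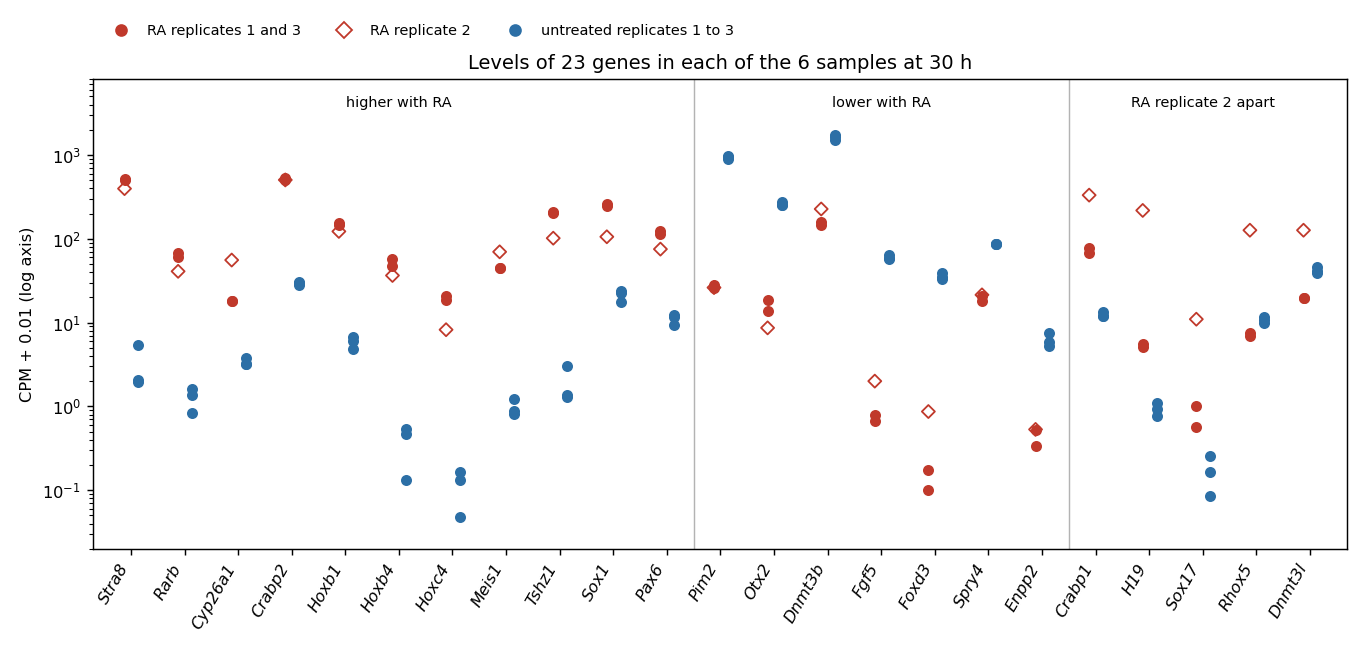
Levels of 23 genes (CPM + 0.01, log axis) in each of the 6 samples at 30 h, with RA replicates 1 and 3 as filled red circles, RA replicate 2 as an open red diamond and the untreated replicates as blue circles. The left and middle panels hold genes whose treated and untreated samples did not overlap, and the right panel holds genes for which RA replicate 2 lies above the other RA-treated samples, as for H19 at 218 CPM against 5.12 and 5.56 CPM.

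Genes that make, carry and break down RA set how much of it reaches the nucleus. All 15 genes on a list for RA synthesis, breakdown and binding were in the table and 11 were tested, of which 8 rose and 0 fell, with a median log2 fold change of 2.90 against 0.04 over all genes tested. Leaving out any 1 untreated library left 3 of these rises, as did the library number series as a term, and leaving out RA replicate 1 or 3 left 6. At an unadjusted p under 0.05, 9 were higher and 1 lower, and DESeq2 called 9 up and 0 down. Crabp2, which encodes a protein that carries RA to its nuclear receptors, was at 533, 504 and 510.1 CPM with RA and 30.3, 28.1 and 29.97 CPM without. The libraries of each group were close together, RA replicate 2 included, and the log2 fold change was 4.13 ± 0.09 (SE, adjusted p = 1.6e-06). Stra6, the membrane receptor through which cells take up retinol, was at 101, 77.5 and 82.2 CPM with RA and 1.47, 1.83 and 2.55 CPM without, and its log2 fold change was 5.49 ± 0.22 (SE, adjusted p = 2.4e-05). Dhrs3, a reductase that turns retinaldehyde back into retinol, was at 36.6, 30.9 and 35.9 CPM with RA and 0.827, 0.915 and 1.38 CPM without, and its log2 fold change was 5.06 ± 0.21 (SE, adjusted p = 2.4e-05). For both genes the treated libraries lay well above the untreated ones.

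Other members of this list differed between the RA-treated libraries. Cyp26a1 (chr19:37697798-37701536), which encodes the main enzyme that oxidizes RA for removal, was at 17.8, 55.8 and 17.9 CPM with RA and 3.20, 3.72 and 3.22 CPM without. Crabp1, a binding protein that holds RA in the cytoplasm, was at 67.4, 332 and 77.1 CPM with RA and 13.5, 12.1 and 11.8 CPM without. For both genes RA replicate 2 was far above the other treated libraries, and treated and untreated libraries still did not overlap. The log2 fold change of Cyp26a1 was 3.19 with all libraries (adjusted p = 0.0036) and 2.39 without RA replicate 2 (adjusted p = 2e-11) and that of Crabp1 3.68 and 2.50. Cyp26b1, a second RA oxidase, had a log2 fold change of 2.62, and Aldh1a2, the enzyme that makes RA from retinaldehyde, one of 1.32. Rdh10, which makes retinaldehyde, did not pass the test (log2 fold change 0.21, adjusted p = 0.44). Without RA replicate 2, Lrat, which stores retinol as esters, rose by 2.29 on the log2 scale, and Fabp5, an alternative RA carrier, fell by 1.16.

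The receptors did not share a direction. Of 12 tested receptor and coregulator genes 3 rose and 2 fell, with a median log2 fold change of 0.22. Rarb (chr14:16430839-16819156), the receptor gene that RA itself is known to switch on, was at 67.6, 40.9 and 61.2 CPM with RA and 0.827, 1.34 and 1.58 CPM without. RA replicate 2 was the lowest treated library and still far above every untreated one, and the log2 fold change was 5.52 ± 0.29 (SE, adjusted p = 4.3e-05). Nrip1, a corepressor recruited by receptors that hold ligand, was at 121, 74.4 and 126 CPM with RA and 13.05, 11.1 and 14.8 CPM without, and its log2 fold change was 3.04 ± 0.22 (SE, adjusted p = 0.00013). Rxrg, a retinoid X receptor gene, fell from 47.5, 44.9 and 47.3 CPM to 4.24, 2.15 and 3.82 CPM, a log2 fold change of -3.78 ± 0.23 (SE, adjusted p = 7.7e-05). Rarg, the RA receptor gene of the early embryo, fell from 174, 182 and 179.7 CPM to 66.5, 77.6 and 65.0 CPM, a log2 fold change of -1.36 ± 0.11 (SE, adjusted p = 0.00019). The groups did not overlap for either. Rxra was just past the fold threshold with all libraries and short of it without RA replicate 2 (log2 fold changes 1.06 and 0.95), and Rara was short of it in both (0.52 with all libraries, adjusted p = 0.0084).

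Receptor pairs bind direct repeats of a hexamer, and the classical RA response element has 2 copies spaced by 5 bases. RefSeq promoters of GRCm38.p6, from 250 bases before to 50 after each start, were searched on both strands for 2 copies of the hexamer AGGTCA with 5 bases between them, where the first base of a copy could also be G and the third T. The motif was in 0.0974% of 32851 promoters, those of 31 genes, of which 6 were tested at 30 h, and 2 of these, Rarb and Cyp26a1, rose. A promoter was at hand for 706 of the genes that rose. The bases around both motifs are shown because Rarb and Cyp26a1 are known direct targets of RA. The capitals mark the repeat with its spacer, in the direction of the gene, at chr14:16575499-16575569 on the minus strand for Rarb and at chr19:37697736-37697806 on the plus strand for Cyp26a1, where the repeat reads on the opposite strand.
Rarb: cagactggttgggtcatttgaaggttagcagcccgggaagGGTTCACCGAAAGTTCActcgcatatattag
Cyp26a1: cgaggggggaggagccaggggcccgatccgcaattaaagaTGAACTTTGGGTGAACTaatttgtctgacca
The repeat lies 53 to 37 bases before the Rarb start used in the promoter table, which is inside the span of the gene given above and not at its outermost start, and 32 to 16 bases before that of Cyp26a1. With a spacer of 1 base the motif was in 0.222% of promoters and with 2 bases in 0.268%, and the called genes among these were Slc25a21, which rose, and Slc7a7, which fell, both with a spacer of 2 bases. A match is a description of these letters in this window only.

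Hox genes, the homeobox genes that give cells their position along the head-to-tail axis, had the largest share of rises among the 30 lists. Of 39 in the table, 23 were tested and 20 rose, with a median log2 fold change of 4.94, and all 23 fold changes were positive. None fell, also at an unadjusted p under 0.05 and in DESeq2, which called 22 up. Summed over the list, the RA-treated libraries had 719, 564 and 719 CPM and the untreated ones 32.0 to 44.2 CPM. Hoxb1, of the 3' end of its cluster and a marker of the fourth hindbrain segment, was at 154, 123 and 147 CPM with RA and 5.94, 4.88 and 6.69 CPM without. It was thus clearly detected without RA, and its log2 fold change was 4.59 ± 0.15 (SE, adjusted p = 1.5e-05).

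Genes from the middle of the clusters went from near the detection limit to clear expression. Hoxb4 was at 0.526, 0.122 and 0.460 CPM without RA and 46.7, 36.5 and 56.9 CPM with it. Hoxb5 was at 0, 0.122 and 0.306 CPM without RA and 22.2, 14.4 and 21.9 CPM with it. Hoxb8 was at 0.113, 0.305 and 0.562 CPM without RA and 43.0, 31.6 and 45.6 CPM with it. For all 3 the treated libraries were far above the untreated ones and the lowest treated library was RA replicate 2, with log2 fold changes of 6.87, 7.18 and 6.999 (adjusted p = 3.5e-05, 0.00019 and 4.7e-05). With so few counts without RA these depend on single untreated libraries, and Hoxb5 ranged from 6.39 without untreated replicate 1 to 8.52 without untreated replicate 3, and Hoxb8 had 7.66 without the latter. Hoxc4 was at 0.0376, 0.122 and 0.153 CPM without RA and 18.5, 8.21 and 20.7 CPM with it, with a log2 fold change of 7.28 ± 0.56 (SE, adjusted p = 0.00018). Hoxc5 was at 0.0376, 0.0610 and 0.102 CPM without RA and 13.6, 6.62 and 14.5 CPM with it, with a log2 fold change of 7.39 ± 0.50 (SE, adjusted p = 0.00011). RA replicate 2 was again the lowest treated library for both. For the D cluster genes Hoxd1 and Hoxd3 it was the highest, at 3.31 and 5.21 CPM.

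Toward the 5' ends fewer genes were detected. Hoxb9 was at 19.5, 15.6 and 22.9 CPM with RA and 1.50, 1.46 and 0.664 CPM without, with a log2 fold change of 3.98. Hoxa7 was at 7.70, 5.82 and 6.31 CPM with RA and 0.639, 0.549 and 0.460 CPM without, with a log2 fold change of 3.56. Hoxa10 reached at most 0.613 CPM in any treated library. Hoxa9, Hoxd8 and Hoxd13 were tested but not called (adjusted p = 0.034, 0.024 and 0.11), and 16 further Hox genes, most of them of the 5' ends, had too few counts. Without RA replicate 2, 23 of 24 tested genes rose, with Hoxa6, Hoxa9 and Hoxd8 added, and Hoxd13 was the one that did not (log2 fold change 0.76). Whether the counting took account of strand is not given in the sources used here, so that antisense transcripts of the clusters may share in these values.

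**Figure D3:**
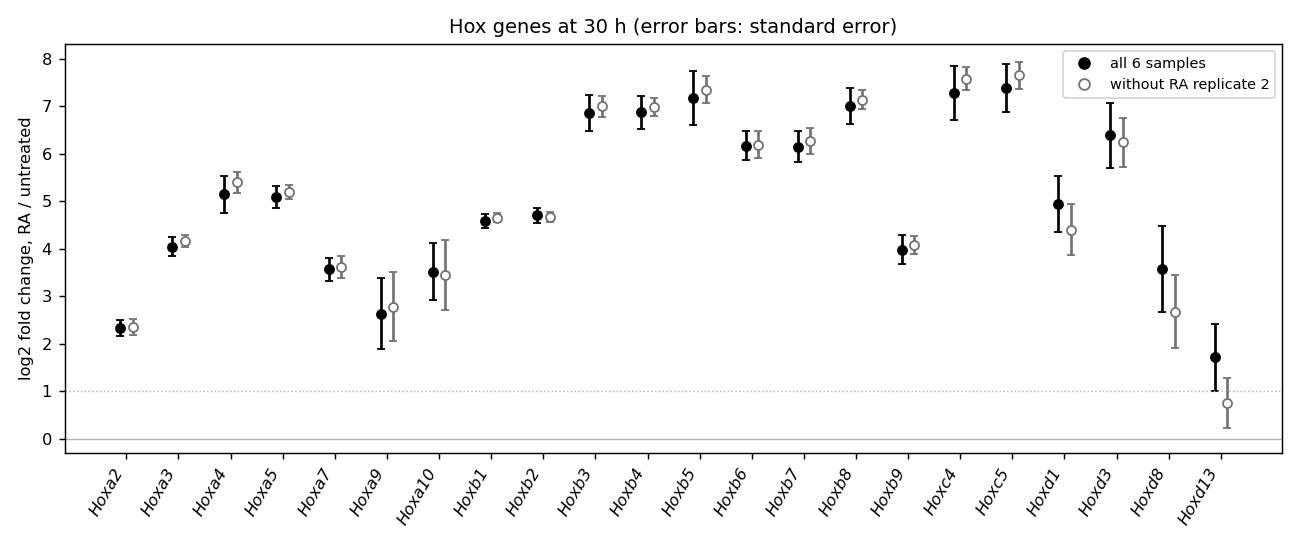
Log2 fold change of RA-treated over untreated organoids at 30 h (y axis, with standard errors) for 22 of the 23 tested Hox genes (x axis), with all 6 samples as filled circles and without RA replicate 2 as open circles. All 22 lie above 0, and Hoxc5, Hoxc4 and Hoxb5 are the highest, at 7.39, 7.28 and 7.18.

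Partners and upstream regulators of the Hox genes rose in 5 of 9 tested cases and 0 fell, with a median log2 fold change of 1.52. At an unadjusted p under 0.05, 6 were higher and 0 lower, and DESeq2 called 5 up and 0 down. Meis1, a homeobox cofactor that binds DNA with Pbx and Hox proteins, was at 44.3, 69.9 and 44.6 CPM with RA and 0.865, 0.793 and 1.23 CPM without. Its groups were far apart, with RA replicate 2 the highest, and the log2 fold change was 5.78 ± 0.29 (SE, adjusted p = 3.5e-05). Meis2, Meis3 and Pbx2 had log2 fold changes of 2.65, 2.03 and 1.52. Cdx1, a caudal-type activator of Hox genes, was at 8.48, 14.5 and 6.74 CPM with RA and 0.451, 0.122 and 0.409 CPM without, and its log2 fold change was 4.84 ± 0.48 (SE, adjusted p = 0.00048). Its relative Cdx2 was at 0.457, 3.37 and 0.662 CPM with RA and 0.677, 0.915 and 0.357 CPM without, groups that overlapped.

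Regulators of the hindbrain rose in 8 of 14 cases and 0 fell (10 and 0 at an unadjusted p under 0.05, 9 and 0 in DESeq2), with a median log2 fold change of 3.12. Tshz1, a zinc finger gene of the trunk and hindbrain, was at 209.7, 102 and 201 CPM with RA and 1.35, 1.28 and 3.06 CPM without. Zfp703, a repressor expressed in the hindbrain, was at 206, 165 and 165 CPM with RA and 2.18, 1.71 and 3.57 CPM without. Both had all treated libraries far above all untreated ones, and the log2 fold changes were 6.49 ± 0.43 (SE, adjusted p = 1e-04) and 6.16 ± 0.26 (SE, adjusted p = 2.4e-05). Nr2f1, an orphan nuclear receptor gene, was at 12.3, 11.8 and 10.6 CPM with RA and 0.414, 0.122 and 0.306 CPM without, with a log2 fold change of 5.26. Nr2f2, its close relative, was at 4.67, 8.67 and 4.84 CPM with RA and 0.113, 0.0610 and 0.0511 CPM without, with a log2 fold change of 6.18. Zfp503, a relative of Zfp703, had a log2 fold change of 3.26.

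The hindbrain list also held genes whose call depended on RA replicate 2. Fgf3, a ligand made by hindbrain segments, was at 0.620, 6.87 and 0.842 CPM with RA and 2.18, 3.41 and 2.55 CPM without. RA replicate 2 lay above all untreated libraries and the other treated ones below them, and without it Fgf3 fell by 1.88 on the log2 scale. Irx3 was called only with RA replicate 2 (1.10, then 0.89). Gbx2, a homeobox gene of the anterior hindbrain, was at 62.5, 61.1 and 61.7 CPM with RA and 69.2, 67.4 and 58.0 CPM without, close levels that did not pass the test in either fit.

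Of 9 tested regulators of the forebrain and midbrain, 3 rose and 1 fell, but none of the 3 rises was called once any 1 untreated library was left out or the library number series was a term. Otx2, the homeobox gene that specifies the anterior brain and is also active in the epiblast, fell from 254, 277 and 255 CPM to 13.8, 8.64 and 18.8 CPM. All treated libraries were far below all untreated ones and RA replicate 2 was the lowest, with a log2 fold change of -4.26 ± 0.26 (SE, adjusted p = 7.8e-05). The genes that rose, Lhx2, Fezf2 and Dmbx1, stayed at low levels, with at most 5.49, 1.50 and 3.10 CPM in any treated library. Of the 20 genes on this list 11 had too few counts to test, among them Six3 and Rax, which mark the forebrain.

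Of 25 tested progenitor and dorsoventral genes 9 rose and 2 fell, with a median log2 fold change of 1.72, and 14 rose and 3 fell without RA replicate 2. Without any 1 untreated library 3 rose and 1 fell, and with the library number series as a term 3 rose and 0 fell. Sox1, an early marker of committed neuroectoderm, was at 259, 106 and 246 CPM with RA and 23.8, 17.8 and 22.5 CPM without. Pax6, a paired-type factor of neural progenitors, was at 122, 75.3 and 114 CPM with RA and 12.2, 9.39 and 11.5 CPM without. For both genes all treated libraries lay above all untreated ones and RA replicate 2 was the lowest of the treated, and the log2 fold changes were 3.24 ± 0.33 (SE, adjusted p = 0.00058) and 3.23 ± 0.20 (SE, adjusted p = 8e-05). Sox21, which promotes progression to neurons, was at 52.6, 38.2 and 50.6 CPM with RA and 1.88, 1.28 and 1.84 CPM without, with a log2 fold change of 4.80 ± 0.20 (SE, adjusted p = 2.4e-05).

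Markers shared with earlier cells behaved otherwise. Sox2, a factor of both pluripotent and neural cells, was at 284, 242 and 279.8 CPM with RA and 239.8, 238 and 249 CPM without, and neither it nor Sox3 nor Nes passed the test in either fit (log2 fold changes 0.15, 0.27 and -0.28). Of the dorsal genes Msx1, a BMP target of the roof plate region, rose by 3.78 on the log2 scale and Lmx1a, of the roof plate, by 4.40 (3.07 and 3.60 without RA replicate 2), while Zic2 and Zic5, zinc finger genes of the epiblast and dorsal neural tube, fell by 1.66 and 1.78. Of the intermediate genes Dbx1 and Dbx2 rose by 3.57 and 1.72, Dbx1 with 2.81 without untreated replicate 1 and 4.26 without untreated replicate 3, and of the ventral ones Nkx6-1, Nkx2-2 and Olig2 had too few counts to test. Foxa2, a floor plate and endoderm factor, and Zic1 were called only without RA replicate 2, which held 9.35 CPM of Foxa2 against 2.32 and 1.26 CPM in the other treated libraries.

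Genes of neuronal differentiation showed no common direction. Of 16 tested 4 rose and 2 fell (2 to 3 and 2 without an untreated library, 6 and 2 without RA replicate 2), with a median log2 fold change of 0.10. The shares over all genes tested were 5.98% up and 2.48% down. Lhx1, a LIM homeobox gene of early interneurons that is also active in other tissues, was at 7.54, 3.89 and 5.74 CPM with RA and 0.150, 0.0610 and 0.102 CPM without, with a log2 fold change of 5.63 ± 0.42 (SE, adjusted p = 0.00015). Neurog3, a proneural gene, was at 7.83, 7.66 and 6.98 CPM with RA and 0.376, 0.183 and 0.409 CPM without, with a log2 fold change of 4.48. Mnx1, a homeobox gene of motor neurons, and Onecut2 had log2 fold changes of 2.95 and 1.64, with 2.17 for Mnx1 without RA replicate 2. Neurod1, a factor of differentiating neurons, fell from 11.1, 10.7 and 10.4 CPM to 1.66, 2.24 and 2.26 CPM (-2.38), and Ebf1 had -2.53. All treated libraries were below all untreated ones for both. Neurog1, Neurog2 and Isl1, which accompany the birth of neurons, had too few counts to test.

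The pluripotency and epiblast list held genes that fell sharply beside many that did not pass the test. Of 24 tested 8 fell and 1 rose, with a median log2 fold change of -0.37. Pou5f1, the gene of Oct4, was at 770.3, 846 and 819 CPM without RA and 186, 212 and 191 CPM with it, a log2 fold change of -2.05 ± 0.10 (SE, adjusted p = 3.5e-05). The treated libraries were close together, far below the untreated ones and still clearly above 0. Fgf5, a growth factor of the primed epiblast, was at 57.8, 63.8 and 58.4 CPM without RA and 0.653, 1.99 and 0.782 CPM with it. Pou3f1, a POU factor of the same state, was at 178, 188 and 175 CPM without RA and 16.9, 28.3 and 19.9 CPM with it. Among treated libraries RA replicate 2 was the highest for both, and their log2 fold changes were -5.70 ± 0.38 (SE, adjusted p = 1e-04) and -3.05 ± 0.20 (SE, adjusted p = 1e-04), with -6.39 for Fgf5 without RA replicate 2. Utf1, Tdgf1 and L1td1, also expressed in the epiblast, fell by 2.78, 2.59 and 2.27 on the log2 scale.

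Some genes known from naive pluripotency, picked after their values were seen, did not pass with all libraries. Nanog, a core factor of that state, was at 66.9, 87.0 and 79.1 CPM with RA and 66.2, 61.7 and 75.4 CPM without. Zfp42 (Rex1), its classical marker, was at 52.0, 85.3 and 54.4 CPM with RA and 54.4, 55.1 and 57.8 CPM without. For both the groups overlapped and RA replicate 2 was the highest library, and the log2 fold changes of 0.20 and 0.20 did not pass (adjusted p = 0.31 and 0.49). The values without RA replicate 2 were 0.08 and -0.09. Klf4 and Dppa5a had log2 fold changes of 0.23 and 0.32, also with overlap, and -0.02 and -0.03 without RA replicate 2. Esrrb and Prdm14 fell only without that library (log2 fold changes -1.19 and -1.05), which held 47.9 CPM of Esrrb against 18.4 and 25.9 CPM in the other treated ones. Tbx3, a T-box gene of naive cells and of many later tissues, was the one that rose, from 1.73, 1.46 and 1.38 CPM to 27.7, 22.8 and 25.3 CPM, with a log2 fold change of 4.04 ± 0.16 (SE, adjusted p = 2.4e-05).

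Among 9 tested genes of DNA methylation and its removal 2 fell and 0 rose (4 and 1 at an unadjusted p under 0.05, 3 and 0 in DESeq2). Dnmt3b, the de novo methyltransferase of the epiblast, was at 1648, 1739 and 1504 CPM without RA and 159, 227 and 147 CPM with it, a log2 fold change of -3.19 ± 0.19 (SE, adjusted p = 6.8e-05). The groups were far apart in all libraries. Dnmt3a, its paralog, fell by 1.52 on the log2 scale. Dnmt3l, a catalytically inactive partner of both, was at 19.8, 127 and 19.6 CPM with RA and 46.3, 39.5 and 41.5 CPM without. RA replicate 2 lay above all untreated libraries and the other treated ones below them, and the log2 fold change was 0.40 with it (adjusted p = 0.7) and -1.13 without it (adjusted p = 2.5e-09).

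Among the signalling lists FGF had the most falls. Of 21 tested ligands, receptors and feedback genes 10 fell and 2 rose, with a median log2 fold change of -1.03. Fgf4, the ligand of pluripotent cells, was at 189.8, 187 and 189 CPM without RA and 7.41, 18.4 and 10.9 CPM with it, a log2 fold change of -3.94 ± 0.32 (SE, adjusted p = 0.00024). Fgf15, a ligand of the early brain, was at 68.6, 58.8 and 72.6 CPM without RA and 8.45, 13.5 and 10.3 CPM with it (-2.63). Fgf17, of the Fgf8 subfamily, was at 8.24, 8.90 and 10.9 CPM without RA and 1.57, 2.61 and 1.95 CPM with it (-2.18). For all 4 ligands that fell, Fgf5 included, RA replicate 2 was the highest treated library and stayed below every untreated one. Spry4, a feedback inhibitor that ERK activity induces, was at 87.4, 87.3 and 87.8 CPM without RA and 17.9, 21.4 and 20.6 CPM with it, with a log2 fold change of -2.13 ± 0.11 (SE, adjusted p = 3.5e-05). Of the other feedback genes Spry2, Spry1 and the phosphatase gene Dusp4 fell by 1.86, 1.03 and 1.26 on the log2 scale, and the Ets factors Etv4 and Etv5 by 2.59 and 1.84. Both genes that rose were receptors. Fgfr3 was at 12.4, 12.7 and 11.5 CPM with RA and 2.26, 2.20 and 1.84 CPM without (2.54), and Fgfr2 at 107, 112 and 104 CPM with RA and 37.9, 38.8 and 39.7 CPM without (1.48). RA replicate 2 was close to the other treated libraries for both. Fgf8, the ligand of the midbrain-hindbrain boundary and the tail bud, had too few counts to test.

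Of 22 tested Wnt genes 2 rose and 1 fell, with a median log2 fold change of 0.89. For comparison, 5.98% of all genes tested rose and 2.48% fell. Sfrp5, a secreted antagonist, rose from 0.414, 0.793 and 0.868 to 61.1, 87.0 and 58.0 CPM, with a log2 fold change of 6.68 ± 0.31 (SE, adjusted p = 2.8e-05). Sp8, a zinc finger target, rose by 2.74 on the log2 scale. Lef1, a nuclear effector, fell from 206, 210.0 and 194 to 52.3, 25.5 and 58.9 CPM (-2.16), and RA replicate 2 was the lowest of all libraries. Sp5, another target, and the ligand gene Wnt7b reached 6.41 and 13.2 CPM in RA replicate 2, at most 1.17 and 1.599 CPM in the other treated libraries, and were not called in either fit. Without that library the antagonist genes Dkk3 and Sfrp1 rose, and the ligand gene Wnt3 and the antagonist gene Frzb fell.

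Of 15 tested Nodal pathway genes 2 rose and 2 fell, and without an untreated library 0 to 1 rose and 1 fell. The shares over all genes tested were 5.98% up and 2.48% down. Lefty1 and Lefty2, both inhibitors of Nodal, went in opposite directions with log2 fold changes of 1.30 and -1.08. Tdgf1, the Nodal coreceptor named above, was at 274, 269 and 325 CPM without RA and 44.3, 36.0 and 64.0 CPM with it. In the BMP list 4 of 16 rose and 1 fell (2 rises without an untreated library, 6 without RA replicate 2), with a median of 1.14. The ligand gene Bmp7 was at 16.3, 22.1 and 14.4 CPM with RA and 2.97, 4.15 and 4.19 CPM without (2.23), and Fst, which encodes an antagonist of activins and BMPs, fell from 23.1, 16.0 and 16.7 to 1.99, 4.47 and 2.59 CPM (-2.62). Id2, Msx1 and Msx2, target genes, were the other rises. Id1, an immediate BMP target, was at 6.82, 30.6 and 5.65 CPM with RA and 1.81, 2.68 and 2.40 CPM without. Id3, a second one, was at 12.6, 55.5 and 10.3 CPM with RA and 5.68, 7.81 and 5.92 CPM without. RA replicate 2 was far above the other treated libraries for both, neither was called with it, and without it Id1 rose by 1.44 on the log2 scale.

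Of 12 tested Hedgehog pathway genes 4 rose and 0 fell (8 and 1 at an unadjusted p under 0.05, 4 and 0 in DESeq2). Boc, a coreceptor, was at 30.1, 19.9 and 25.98 CPM with RA and 2.67, 3.72 and 4.03 CPM without, a log2 fold change of 2.87 ± 0.22 (SE, adjusted p = 0.00018), and Cdon, its paralog, rose by 1.31 on the log2 scale. Hhip and Ptch1, which bind the ligand and are themselves induced by it, had 2.45 and 1.24. Gli1, the standard transcriptional readout of the pathway, was at 26.6, 48.5 and 25.5 CPM with RA and 20.3, 20.9 and 20.7 CPM without and was not called (0.71, adjusted p = 0.078), and the ligand gene Shh had too few counts to test. Of 16 Notch genes 3 rose and 1 fell, with 1 to 2 rises without an untreated library and 2 without RA replicate 1 or 2. For comparison, 5.98% of all genes tested rose and 2.48% fell. Hes5, a Notch target of neural progenitors, was at 5.35, 8.12 and 4.63 CPM with RA and 0.564, 0.976 and 0.409 CPM without (3.24), and Hes3, a related gene of early neuroepithelium, at 9.17, 6.47 and 6.62 CPM with RA and 0.188, 0.122 and 0.409 CPM without (4.92). Hes6, which is expressed in differentiating cells, fell by 1.22 on the log2 scale, and the ligand gene Dll1 was called only with RA replicate 2 (1.17, then 0.93).

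Lysophosphatidic acid (LPA), a signalling lipid, is made outside cells by autotaxin, the product of Enpp2. Enpp2 (chr15:54838901-54952892) was at 0.326, 0.521 and 0.511 CPM with RA and 5.26, 7.50 and 5.92 CPM without, and RA replicate 2 lay with its group. Among 12 tested genes of LPA synthesis, sensing and breakdown it was the one that fell, and 2 receptor genes rose. This compares with falls for 2.48% and rises for 5.98% of all genes tested. Lpar1 was at 20.2, 27.9 and 19.8 CPM with RA and 6.13, 7.38 and 6.38 CPM without (1.78), and Lpar6 at 39.97, 51.5 and 48.4 CPM with RA and 19.4, 16.5 and 19.15 CPM without (1.35). Neither overlapped between the groups, which held for all 1406 called genes. Lpar4 had a log2 fold change of -0.96 and was just short of the fold threshold. Without RA replicate 2, Lpar3 rose (2.05) and Pla1a, which encodes a phospholipase, fell (-1.81).

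Of the cadherins the epithelial one fell and the neural one rose. Cdh1, the epithelial cadherin of pluripotent cells, was at 747, 814 and 670.4 CPM without RA and 137, 261 and 135 CPM with it. Cdh2, the neural cadherin, was at 22.9, 22.0 and 21.5 CPM without RA and 80.1, 73.3 and 76.3 CPM with it. The groups did not overlap for either gene, RA replicate 2 had the highest Cdh1 of the treated libraries, and the log2 fold changes were -2.06 ± 0.27 (SE, adjusted p = 0.0018) and 1.79 ± 0.09 (SE, adjusted p = 3.5e-05). Cdh6, a cadherin of the neural tube and other epithelia, went from 0.715, 0.854 and 0.868 to 13.3, 28.3 and 17.3 CPM (4.61). Over the 21 tested cadherin and tight junction genes 3 rose, with Cldn1 as the third, and 4 fell, with Epcam, Cdh3 and Cldn7 at -1.22, -1.35 and -2.38 (-3.25 for Cldn7 without RA replicate 2). Without an untreated library 2 to 3 fell. Cldn6, a claudin of early epithelia, was at 24.5, 54.6 and 23.3 CPM with RA and 84.4, 94.2 and 76.7 CPM without and fell only in the fit without RA replicate 2 (-1.85).

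Over all genes tested 5.98% rose and 2.48% fell. Of 24 tested genes of apical polarity and actomyosin 1 rose and 0 fell (9 and 5 at an unadjusted p under 0.05, 3 and 1 in DESeq2). It was Crb2, of the apical Crumbs complex, at 27.02, 37.3 and 23.4 CPM with RA and 5.49, 6.59 and 6.84 CPM without, with a log2 fold change of 2.22 ± 0.22 (SE, adjusted p = 0.00046). Without RA replicate 2, 3 genes of the list rose and 2 fell, beside 8.96% and 4.54% of all genes tested in that fit. Podxl, an apical sialomucin, was at 33.2, 71.4 and 31.2 CPM with RA and 130.5, 138 and 118 CPM without. It fell only without RA replicate 2 (-2.02).

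Markers of other cell types were mostly low, and the summed level of each set was highest in RA replicate 2. For 5 endoderm markers (Sox17, Gata4, Gata6, Afp and Hnf4a) the sum was 2.35, 17.3 and 3.52 CPM in the treated libraries and 0.766 to 0.978 CPM in the untreated ones, and Afp had no count outside RA replicate 2. On the longer endoderm list 3 of 10 tested genes rose with all libraries, 2 without an untreated library and 9 without RA replicate 2. Sox17, of definitive and extraembryonic endoderm, was at 0.555, 10.97 and 0.992 CPM with RA and 0.0752, 0.244 and 0.153 CPM without. Its log2 fold change was 4.81 with an adjusted p of 0.038, and 2.35 with an adjusted p of 0.002 without RA replicate 2. Foxa1, a pioneer factor of endoderm and floor plate, was at 4.40, 12.7 and 3.73 CPM with RA and 0.639, 0.305 and 0.868 CPM without and rose in both fits (3.50 and 2.68), as did Sox7 (3.23). Trh, which encodes the precursor of thyrotropin-releasing hormone, fell from 159.8, 181 and 209.5 to 25.4, 33.6 and 31.2 CPM (-2.61).

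For trophoblast and surface epithelium 6 markers (Cdx2, Elf5, Krt8, Krt18, Gata3 and Tfap2c) summed to 51.4, 196 and 49.6 CPM with RA and to 39.0 to 40.4 CPM without, and 0 of 11 tested genes on the list rose (4 at an unadjusted p under 0.05 and 2 in DESeq2). Elf5 and Gata3 had at most 1 count over the untreated libraries. Krt8, a keratin of simple epithelia, was at 18.9, 86.1 and 17.6 CPM with RA and 13.2, 11.95 and 11.7 CPM without, and Gata2 at 3.002, 16.7 and 1.86 CPM with RA and 0.301, 0.427 and 0.460 CPM without. Both were far higher in RA replicate 2 than in any other library at 30 h. Without RA replicate 2, 1 of 11 tested genes rose and 2 fell. The rise was that of Gata2, with a log2 fold change of 2.62 (adjusted p = 6.1e-06). Grhl2, a regulator of epithelial junction genes, fell from 46.9, 52.0 and 45.7 to 3.75, 13.7 and 5.38 CPM (-2.65, and -3.41 without RA replicate 2), and was not called without any 1 of the other 5 libraries.

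Neural crest markers (Sox10, Snai2, Twist1 and Tfap2a) summed to 4.67, 12.5 and 6.34 CPM against 4.55 to 5.18 CPM, and on the longer list Ednrb and Ets1 rose among 11 tested genes and Foxd3 fell, with 1 rise left without an untreated library and 4 rises without RA replicate 2. Ednrb, an endothelin receptor gene, was at 30.6, 22.2 and 29.8 CPM with RA and 0.376, 0.427 and 0.511 CPM without, with a log2 fold change of 5.97 ± 0.22 (SE, adjusted p = 2.4e-05). Mesoderm markers (T, Tbx6, Mesp1, Meox1 and Tcf15) summed to 32.0, 59.9 and 31.5 CPM against 33.7 to 39.98 CPM. On the mesoderm list Meox1 and Pdgfra rose, the latter with a log2 fold change of 3.86, and so did Gata5, which had no count in any untreated library and was at least 15.3-fold higher with RA, taking 3 counts over the untreated group as the floor. Tcf15 fell (-1.07), a call lost without any 1 library other than RA replicate 2, and Mesp1 and Msgn1, which mark nascent mesoderm, had too few counts to test.

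The labelled neuroepithelial character was checked in the same way. Neural progenitor markers (Sox1, Sox2, Sox3, Pax6 and Nes) summed to 834, 582 and 787 CPM with RA and to 443 to 468 CPM without, and pluripotency markers (Pou5f1, Nanog, Zfp42 and Esrrb) to 323, 433 and 350.3 CPM against 937 to 1015 CPM. Neuron markers (Tubb3, Dcx, Elavl3 and Neurod1) summed to 64.6, 109 and 56.1 CPM against 96.8 to 107 CPM. Progenitor markers were thus present in every library and pluripotency markers were not gone from any. Without RA the progenitor sum came mostly from Sox2, at 238 to 249 CPM, and Nes, at 134 to 165 CPM. Sox1 was at 17.8 to 23.8 CPM and Pax6 at 9.39 to 12.2 CPM in these untreated libraries. Sox2 is also a factor of pluripotent cells, so that this sum cannot decide the neuroepithelial character of untreated organoids. The part of the other cell types in the results above was not tested.

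**Figure D4:**
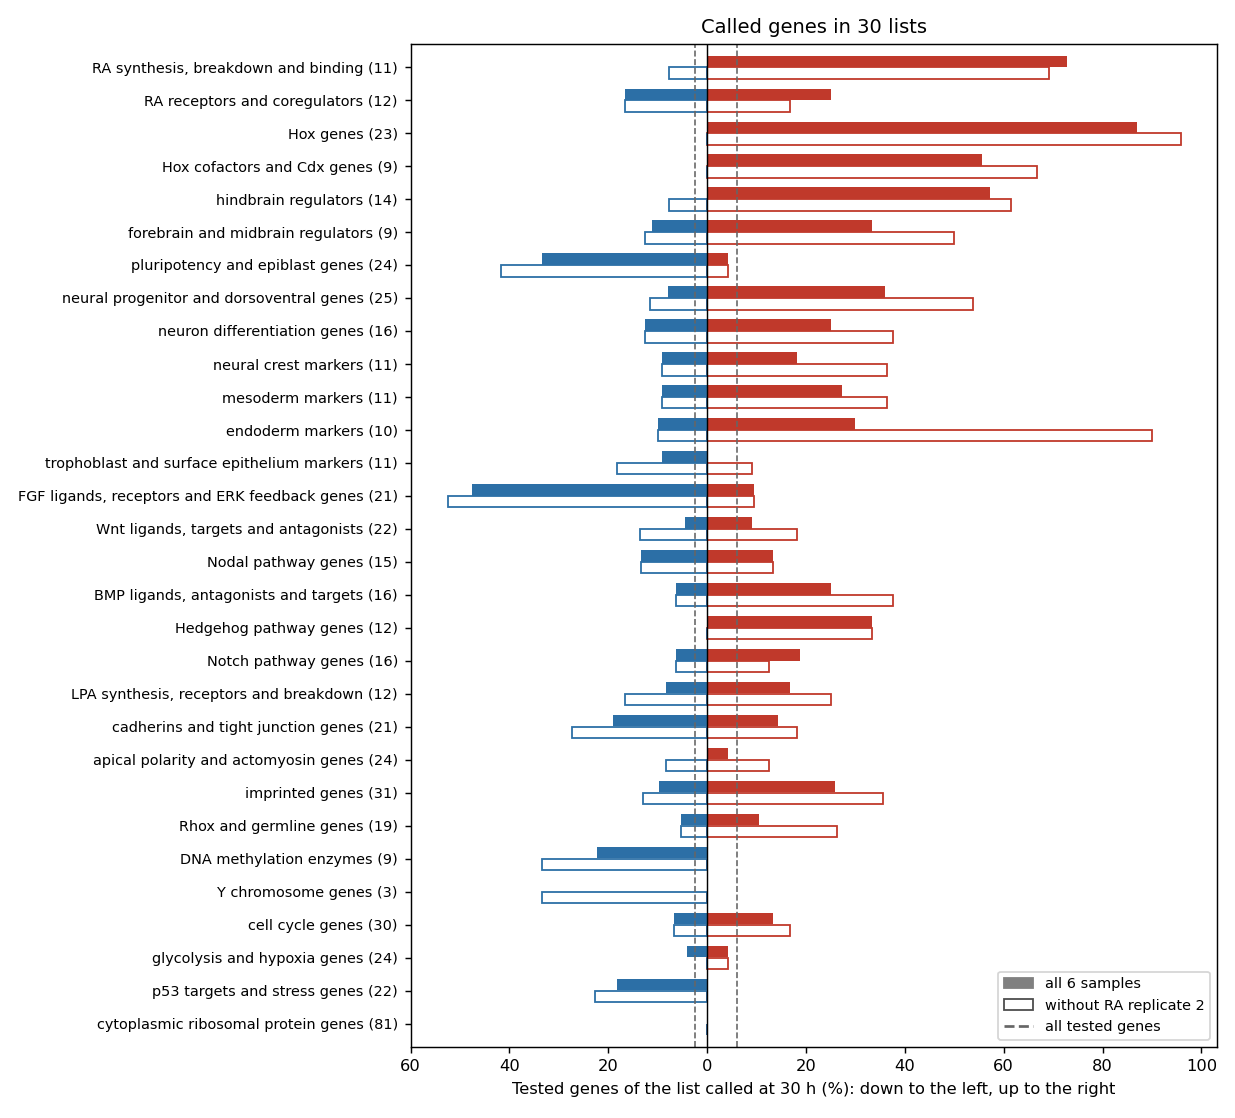
Share of the tested genes of each of 30 lists that rose (right) or fell (left) with RA at 30 h, in percent, with all 6 samples as filled bars and without RA replicate 2 as open bars, and the number tested with all samples in parentheses. Dashed lines mark the shares over all genes tested, 5.98% up and 2.48% down, and the Hox list extends furthest to the right and the FGF list furthest to the left.

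Imprinted genes, which are expressed from one parental copy, had 8 rises and 3 falls among 31 tested, with a median log2 fold change of 0.71 that was 0.20 without RA replicate 2. Mest, a paternally expressed gene of mesoderm and brain, was at 576, 975 and 589 CPM with RA and 144, 126 and 140.2 CPM without (log2 fold change 2.39 ± 0.23, adjusted p = 0.00042). Peg10, a gene derived from a retrotransposon, was at 1368, 1675 and 1353 CPM with RA and 449, 407 and 411 CPM without (log2 fold change 1.80 ± 0.12, adjusted p = 0.00011). Cdkn1c, a cell cycle inhibitor gene, was at 92.9, 187 and 84.9 CPM with RA and 21.8, 20.6 and 20.3 CPM without (log2 fold change 2.55 ± 0.31, adjusted p = 0.0013). The groups did not overlap for any of these, and RA replicate 2 was the highest library for each. Peg12 and Plagl1 rose by 4.04 and 2.23 on the log2 scale, while Snrpn and the maternally expressed RNAs Meg3 and Mirg fell by 1.65, 1.18 and 1.21.

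H19 and Igf2 share an imprinting control region, and both were far higher in RA replicate 2 than in the other treated libraries. H19, a noncoding RNA of the maternal copy, was at 5.12, 218 and 5.56 CPM with RA and 0.752, 1.10 and 0.919 CPM without. Igf2, a growth factor gene of the paternal copy, was at 1.37, 13.1 and 0.812 CPM with RA and 0.113, 0.183 and 0.102 CPM without. All treated libraries were above all untreated ones for both. The log2 fold changes were 6.42 and 5.28 with all libraries (adjusted p = 0.032 and 0.024) and 2.54 and 3.01 without RA replicate 2 (adjusted p = 2.8e-08 and 1e-04), so that both genes passed only without it.

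Of 19 tested Rhox and germline genes 2 rose, Stra8 and Slc25a31, and 1 fell, Sycp3, a component of the meiotic chromosome axis (-1.21). Without an untreated library 1 rose and 0 fell, and without RA replicate 2 5 rose and 1 fell. With all libraries the shares over all genes tested were 5.98% up and 2.48% down. Rhox5, an X-linked homeobox gene of the reproductive cluster, was at 7.50, 127 and 6.95 CPM with RA and 10.9, 11.6 and 9.75 CPM without. RA replicate 2 lay above every untreated library and the others below, and the log2 fold change was 2.16 (adjusted p = 0.18) with it and -0.59 (adjusted p = 0.00075) without. Some Rhox genes are close copies of one another, and counts of single members are uncertain. Ddx3y, a Y-linked RNA helicase gene, was at 1.40, 39.6 and 2.83 CPM with RA and 5.15, 3.60 and 4.95 CPM without. Eif2s3y, a Y-linked translation factor gene, was at 2.25, 52.1 and 4.27 CPM with RA and 6.32, 4.82 and 5.87 CPM without. As for Rhox5, RA replicate 2 was above every untreated library and the other treated ones were below. None of the 3 tested Y chromosome genes passed with all libraries, nor at an unadjusted p under 0.05 or in DESeq2, and without RA replicate 2 Ddx3y fell by 1.14 on the log2 scale.

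Relative to the mean of the other RA-treated libraries, the 5 genes highest in RA replicate 2 were H19, Xist, Rhox5, Ddx3y and Eif2s3y, and the 5 lowest included A2m, Stc1, Ptpn4 and Cntln. Xist was at 1.70, 53.9 and 2.62 CPM with RA and 3.57, 2.62 and 4.44 CPM without. Stc1, a secreted glycoprotein gene, was at 6.85, 1.10 and 9.02 CPM with RA and 27.2, 23.4 and 24.8 CPM without, with RA replicate 2 the farthest from the untreated libraries.

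Of 30 cell cycle genes 4 rose (Ccnd2, Cdkn1c, Cdkn2c and Mycl) and 2 fell (Cdk6 and Mycn). Without RA replicate 2, 5 rose and 2 fell. Cdk6 was not called in that fit, and Myc fell by 1.34 on the log2 scale (adjusted p = 5.9e-09). Over all genes tested 5.98% rose and 2.48% fell. Without an untreated library 2 of the 4 rises were left. Of 24 genes of glycolysis and hypoxia 1 rose and 1 fell, the fall only with all 3 untreated libraries. Most of this list was lower with RA, though by less than the fold threshold, with a median log2 fold change of -0.49. At an unadjusted p under 0.05, 2 were higher and 16 lower, and DESeq2 called 1 up and 2 down. Slc2a1, the main glucose transporter gene, was at 2912, 2741 and 2745 CPM with RA and 1208, 1305 and 1274 CPM without, with a log2 fold change of 1.15 ± 0.08 (SE, adjusted p = 0.00014). Pdk1, a brake on pyruvate oxidation, was called only with RA replicate 2 (-1.06, then -0.87). Ldha, of lactate production, was at 1294, 973 and 1277 CPM with RA and 2154, 2285 and 2230.3 CPM without, groups apart but short of the fold threshold at -0.91.

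Of 22 p53 targets and stress genes 4 fell and 0 rose (10 and 1 at an unadjusted p under 0.05, 5 and 0 in DESeq2). Trib3, which Atf4 induces, was at 45.9, 50.2 and 48.1 CPM without RA and 13.5, 14.2 and 15.7 CPM with it (-1.73). Chac1, a second Atf4 target, was at 36.6, 45.8 and 40.2 CPM without RA and 10.8, 15.2 and 10.97 CPM with it (-1.73). Pmaip1 (Noxa), a p53 target that promotes apoptosis, was at 63.6, 58.6 and 59.2 CPM without RA and 17.98, 21.2 and 21.6 CPM with it (-1.58). The treated libraries were close together for all 3. Hspa1b, which is nearly identical to Hspa1a so that its counts are uncertain, had a log2 fold change of -1.02. Of 81 cytoplasmic ribosomal protein genes 0 were called in either direction (1 up and 25 down at an unadjusted p under 0.05, and 0 in DESeq2), with a median log2 fold change of -0.18. Without RA replicate 2 the median was -0.37, and again 0 were called. Summed over the list, the RA-treated libraries had 38241, 51211 and 38481 CPM and the untreated ones 47687 to 50389 CPM. RA replicate 2 thus lay above every untreated library and the other treated ones below.

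To ask at which genes the effect of RA at 30 h differs from that at the neighbouring time points, an interaction term was fitted to the 12 libraries at 18 h and 30 h, and likewise at 30 h and 42 h. Against 18 h, 286 genes had a more positive effect at 30 h (1.65% of 17341 tested) and 252 a more negative one (1.45%) at an adjusted p under 0.01. Against 42 h there were 155 (0.89% of 17420) and 37 (0.212%). Without RA replicate 2 at 30 h the counts were 980 and 1166 against 18 h and 699 and 884 against 42 h, and all genes called with it were called again. Both comparisons share the 6 libraries at 30 h. No library at 18 h or 42 h has chromosome shifts as large or Y chromosome genes as low as 5 of the 6 at 30 h. Smaller shifts of 0.01 to 0.16 on chromosomes 1, 8 and 14 were present at 42 h, against -0.04 to 0.05 at 18 h, the reference. Time and that difference cannot be told apart.

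The RA-clearing enzymes responded less at 30 h than at 18 h. Cyp26a1 had a log2 fold change of 6.63 at 18 h, 3.19 at 30 h and 3.11 at 42 h, and the difference between 30 h and 18 h was -3.42 (SE 0.60, adjusted p = 0.0044). In level, Cyp26a1 averaged 276 CPM over the RA-treated libraries at 18 h and 28.5 CPM at 42 h, and at 30 h RA replicate 2 was above the latter and the other treated libraries below it. Cyp26b1 had 5.62, 2.62 and 0.71 at the 3 times (adjusted p = 0.0021 against 18 h). Stra6 had a larger effect at 30 h than at either other time, with 3.75, 5.49 and 2.33 (adjusted p = 0.0012 against 18 h and 4.6e-05 against 42 h).

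Of 26 Hox genes tested 1 differed from 18 h. Against 42 h 6 of 29 had a larger effect at 30 h, among them Hoxb1 with 4.59 at 30 h and 0.88 at 42 h (difference 3.70, adjusted p = 1.4e-06). Its mean in untreated organoids was 5.84 CPM at 30 h and 32.0 CPM at 42 h, and in RA-treated ones 141 and 59.1 CPM. Both groups thus changed between these times.

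Of 25 progenitor genes 3 gained in effect over 18 h, Sox21, Pax6 and Irx5. Sox21 had a log2 fold change of 1.37 at 18 h and 4.80 at 30 h (adjusted p of the difference = 1.5e-05), and Pax6 1.81 and 3.23 (adjusted p = 0.0014). Cdh2 had 0.14 and 1.79 (adjusted p = 1.5e-05). At 42 h the effects on Sox21 and Sox1 were 1.31 and 0.96, and untreated organoids averaged 29.7 and 85.1 CPM of them. Of 22 FGF genes 5 had a more negative effect at 30 h than at 18 h, with Spry4 at 0.01 and -2.13 (adjusted p = 2.5e-06) and Etv4 at -0.13 and -2.59 (adjusted p = 0.0013). Of 22 stress genes 8 had a more negative effect and 1 a more positive one, and Atf3, an early response factor, had 3.74 at 18 h and -0.06 at 30 h (adjusted p = 1e-04).

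The 5 largest gains over 18 h among genes with a mean of at least 1 CPM were those of Nsg2, Nr2f2, Zscan4d, Tmem132c and Gfra3, and the 5 largest losses included those of Atf3, Cyp26a1, Btla and Pcnx2. Nsg2, a neuronal endosomal protein gene, was at 13.5, 13.1 and 14.97 CPM with RA and 0.677, 0.732 and 0.613 CPM without at 30 h, and its log2 fold changes were -0.68, 4.36 and 2.40 in time order. Zscan4d, a gene of rare cells that resemble the earliest embryo, was at 4.34, 6.56 and 7.88 CPM with RA and 0.0376, 0.183 and 0.357 CPM without, but close copies of it make its counts uncertain. All treated libraries were above all untreated ones for both. Against 42 h the largest gains were those of Angpt1, Glra1, Hes3, Gabrg1 and Nr2f2 and the largest losses those of Gjb2, Car14, Myc, Cacnb2 and St6gal2. Angpt1 averaged 0.638 CPM with RA and 0.0624 CPM without at 30 h, and 0.562 and 3.86 CPM at 42 h. Its log2 fold changes were 3.24 at 30 h and -2.75 at 42 h. Glra1 averaged 1.37 and 0.145 CPM at 30 h and 1.04 and 4.11 CPM at 42 h, with 3.10 and -2.01. Hes3 had log2 fold changes of 1.37, 4.92 and 0.00 in time order, with untreated means of 0.763, 0.239 and 8.37 CPM. Car14, a carbonic anhydrase gene, was at 7.50, 6.01 and 8.24 CPM with RA and 76.3, 73.1 and 75.3 CPM without at 30 h, and its log2 fold changes were -2.54, -3.37 and -1.64 in time order.

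**Figure D5:**
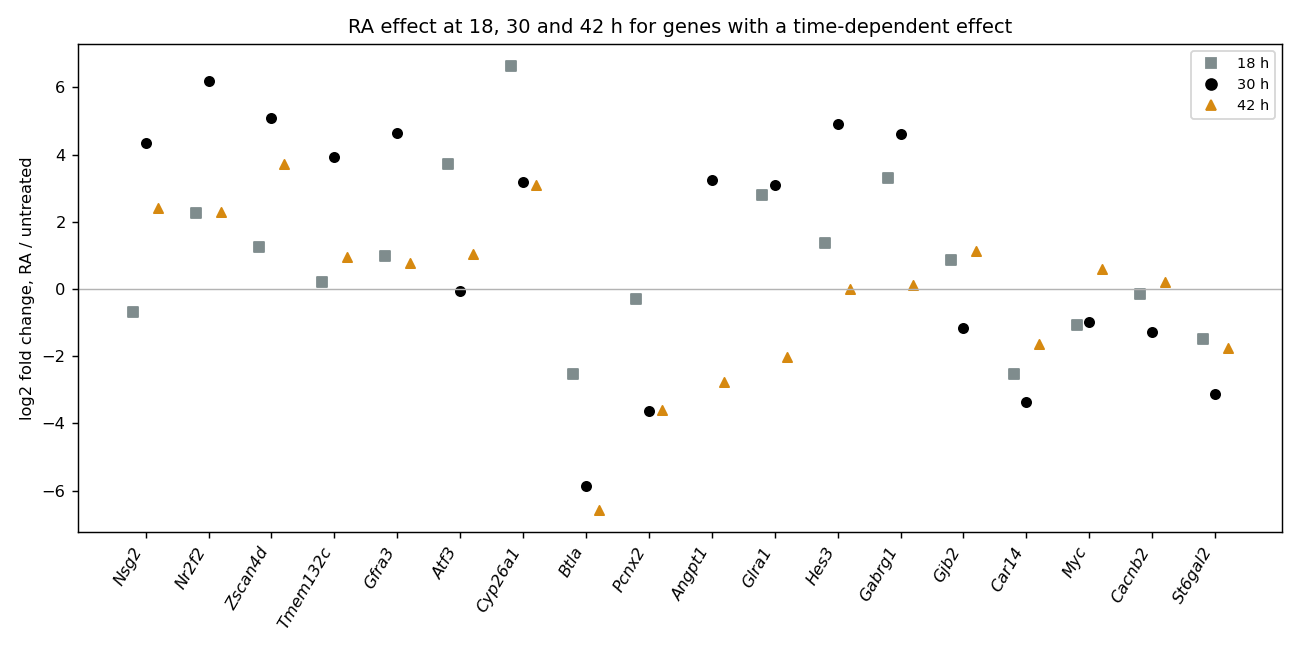
Log2 fold change of RA-treated over untreated organoids (y axis) at 18 h (squares), 30 h (circles) and 42 h (triangles) for genes among those with the largest differences of the RA effect between 30 h and a neighbouring time point (x axis). Cyp26a1 falls from 6.63 at 18 h to 3.19 at 30 h, and Nr2f2 and Hes3 are highest at 30 h, while Angpt1 was not tested at 18 h.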

How the data were processed

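RNA was sequenced from whole organoids after poly(A) selection with a directional library kit. By their methods and processing notes, the authors trimmed the reads (Trim Galore 0.5.0), took out abundant sequences (Bowtie2 2.3.4.1), aligned the rest to GRCm38 with STAR and assigned them to genes with featureCounts (Subread 1.6.2). They deposited 1 table of raw counts for all 45 libraries. Every count column could be mapped to a sample. The strand setting of the counting is not given in the sources used here. Symbols shared by several gene IDs were taken as the ID with the most counts at 30 h.

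The 6 libraries at 30 h were fitted with edgeR 4.0.16 (R 4.3.3, limma 3.58.1): filterByExpr with a minimum count of 10 and a minimum total of 15, TMM scaling, the quasi-likelihood test and Benjamini-Hochberg adjustment over all genes tested. Genes were called at an adjusted p under 0.01 with an absolute log2 fold change above 1. The RA effect at 30 h was set against that at 18 h and at 42 h by an interaction term in fits of 12 libraries. DESeq2 1.42.0, other scalings, filters and thresholds, a fit of all 45 libraries, the replicate block, the library number series and each library left out were alternatives. The fits were tested on simulated counts. With 3 libraries against 3 an exact permutation test of a single value cannot go below p = 0.1, and none was used.

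The comparison, its gene lists and the rule for named genes were chosen with earlier results of these data known. The rule named the 10 largest rises and falls among called genes whose groups do not overlap, at a mean of at least 1 CPM, up to 6 members of each of 30 lists, preset marker genes, the 5 highest and 5 lowest genes of RA replicate 2, list members whose call changed without it, and the 5 largest interaction terms in each direction. Results of some genes that the rule named or that belong to a list are not reported here. Other list members were named after their values were seen.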

Additional observations from a re-analysis of the deposited data

Results flagged for a closer look

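The effect of RA at 30 h differed from that at 18 h for 538 genes and from that at 42 h for 192 genes, by the interaction term of edgeR's quasi-likelihood test at an adjusted p under 0.01. Apart from counts and levels, all values here are differences of log2 fold changes, 30 h minus the other time. All genes named here kept their direction and their adjusted p under 0.01 without RA replicate 2 at 30 h. Among genes with a mean of at least 1 CPM the most positive differences from 18 h were those of Nsg2 at 5.05 (adjusted p = 3.9e-07), Nr2f2 at 3.94 (adjusted p = 0.0031), Zscan4d at 3.84 (adjusted p = 0.0016), Tmem132c at 3.73 (adjusted p = 0.00081) and Gfra3 at 3.68 (adjusted p = 0.00021). The most negative included those of Atf3 at -3.75 (adjusted p = 1e-04), Cyp26a1 at -3.42 (adjusted p = 0.0044), Btla at -3.30 (adjusted p = 0.00094) and Pcnx2 at -3.30 (adjusted p = 5.2e-05). Against 42 h the most positive were those of Angpt1, which encodes a ligand of endothelial cells, at 5.98 (adjusted p = 0.00012), of the inhibitory neurotransmitter receptor genes Glra1 at 5.08 (adjusted p = 0.00084) and Gabrg1 at 4.49 (adjusted p = 8.1e-05), of Hes3 at 4.90 (adjusted p = 4.2e-05) and of Nr2f2 at 3.86 (adjusted p = 0.0024). Angpt1 had 2, 1 and 1 counts in the untreated libraries at 30 h, under the detection limit. At 42 h it averaged 3.86 CPM without RA and 0.562 CPM with it. The most negative were those of the gap junction gene Gjb2 at -2.32 (adjusted p = 0.0012), Car14 at -1.74 (adjusted p = 8.1e-05), Myc at -1.58 (adjusted p = 0.0098), the calcium channel gene Cacnb2 at -1.50 (adjusted p = 0.0022) and the sialyltransferase gene St6gal2 at -1.38 (adjusted p = 0.00097). The chromosome shifts of 5 of the 6 libraries at 30 h were larger than in any library at 18 h or 42 h. They cannot be told apart from time in these differences.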

How the results depend on the processing

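The counts of 994 rises and 412 falls stayed within 1.5 times under DESeq2's size factors in edgeR, library totals, no filter, DESeq2 and the replicate block, and became 1973 and 691 in a fit of all 45 libraries, 307 and 114 when tested against a 2-fold change (glmTreat), 344 and 138 with the library number series as a term, and 2700 and 2109 at an adjusted p under 0.05 with no minimum fold. Libraries of the earlier numbers only, with 1 RA-treated library assumed to vary like the untreated ones, gave 1338 and 739. Leaving out 1 library gave 386 to 1508 rises and 224 to 764 falls, the highest without RA replicate 2 and the lowest without an untreated library. Scaling by library totals moved the median over all genes from 0.04 to 0.18 (log2) and gave 1218 rises and 320 falls, so that 79.2% of calls were rises against 70.7%.

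The interactions numbered 538 against 18 h and 192 against 42 h. They were 860 and 437 with no filter, 1033 and 584 in DESeq2, 1295 and 586 at an adjusted p under 0.05, 309 to 2146 and 88 to 1583 with 1 library left out, again with the maximum without RA replicate 2. With the replicate number as a block they were 318 and 88, and rises and falls 871 and 389. The deviations of same-numbered libraries at 30 h correlated by 0.08, 0.23 and 0.23, not over 0.1 in every pair, so that the numbers were not taken to pair the libraries, although each RA-treated library correlated best with its own number.

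Of 155 called genes that the text names, 0 lost the call under DESeq2's size factors, no filter, DESeq2 or the fit of all libraries, 8 under library totals, 10 under the block, 4 with earlier numbers only and 56 with the series term. Without an untreated library 38 to 43 lost it, without RA replicate 1 23, without RA replicate 2 5 and without RA replicate 3 13. The 45 lost without at least 1 library other than RA replicate 2 were Aldh1a2, Cldn7, Cyp26b1, Dbx1, Gjb2, Glra1, Grhl2, Hoxa10, Hspa1b, Slc25a31, Spry1, Tcf15, Angpt1, Cacnb2, Dbx2, Dll1, Foxa1, Gata5, Grm6, Irx3, Lefty2, Mnx1, Pdk1, Zic5, Cdkn1c, Cdkn2c, Crabp1, Cyp26a1, Dmbx1, Ets1, Fezf2, Lhx2, Lmx1a, Msx1, Msx2, Rxra, Sycp3, Cdh1, Hoxd1, Lefty1, Onecut2, ccdc198, Hes5, Lef1 and Sost. With the series term the RA effect rests on RA replicate 1 alone against the untreated libraries. The cause of the lost calls was not tested.

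Log2 fold changes that turned sign under an alternative were of 14 genes, none of them called with all libraries. Under library totals Atf3 was at 0.087 and Gbx2 at 0.067. With earlier numbers only and with the series term Cdx2 was at -0.49 and -0.51, Ddx3y at -1.72 and -1.72, Dnmt3l at -1.11 and -1.12, Dppa5a at -0.022 and -0.031, Eif2s3y at -1.35 and -1.35, Fgf3 at -2.11 and -2.13, Klf4 at -0.20 and -0.20, Nanog at -0.028 and -0.037, Pla1a at -1.33 and -1.34, Rhox5 at -0.52 and -0.53, Xist at -1.08 and -1.08 and Zfp42 at -0.11 and -0.12. Under the block Dnmt3l was at -0.25, Fgf3 at -0.68 and Pla1a at -0.45. With 1 library left out Atf3 ranged from -0.55 to 0.16, Cdx2 from -0.21 to 1.65, Ddx3y from -1.14 to 2.23, Dnmt3l from -1.13 to 0.81, Dppa5a from -0.033 to 0.46, Eif2s3y from -0.83 to 2.33, Fgf3 from -1.88 to 0.53, Klf4 from -0.017 to 0.40, Pla1a from -1.81 to 0.79, Rhox5 from -0.59 to 2.67, Xist from -0.75 to 3.01 and Zfp42 from -0.089 to 0.33, each lowest without RA replicate 2. List members that the filter on low counts removed could not be tested at this depth.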

Other observations

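Several genes that set RA replicate 2 apart at 30 h can be followed over time in the RA-treated organoids. Sox17 was at 7.34 to 9.48 CPM in the 3 RA-treated libraries at 18 h and at 6.76 to 9.05 CPM at 42 h. At 30 h RA replicate 2 held 10.97 CPM and replicates 1 and 3 held 0.555 and 0.992 CPM. H19 was at 58.3 to 60.6 CPM at 18 h and at 294 to 365 CPM at 42 h with RA, and the 218 CPM of RA replicate 2 at 30 h lay between these ranges while replicates 1 and 3 lay below both. Foxa2 was at 1.95 to 2.84 CPM at 18 h and at 7.67 to 10.2 CPM at 42 h with RA, against 9.35 CPM in RA replicate 2 and 2.32 and 1.26 CPM in the others. Sox1 was at 28.0 to 30.01 and 160.3 to 177 CPM at these times, with RA replicate 2 between the ranges at 106 CPM and replicates 1 and 3 above both.

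Untreated organoids at 30 h also lay outside the range of their neighbours in time for some genes. Dnmt3l was at 46.3, 39.5 and 41.5 CPM in the untreated libraries at 30 h, at 226 to 260.3 CPM at 18 h and at 79.0 to 93.5 CPM at 42 h. Podxl was at 130.5, 138 and 118 CPM, against 239 to 282 and 186 to 219 CPM. H19 was at 0.752, 1.10 and 0.919 CPM, against 8.003 to 10.1 and 14.1 to 17.2 CPM. All 3 untreated libraries at 30 h were below all untreated libraries at both other times for these 3 genes, which were chosen after their values were seen.

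On log2(CPM + 1) RA replicate 2 had a Pearson's r of 0.976 to 0.980 with the RA-treated libraries at 42 h, as RA replicate 1 did with 0.975 to 0.978, and 0.967 and 0.960 with the other RA-treated libraries at 30 h. By total exon length its median log2 difference from those was 0.23 for genes under 1 kb and -0.35 for genes over 8 kb, against -0.04 and -0.02 between replicates 1 and 3. By chromosome this difference was -0.43 on chromosome 14, -0.39 on chromosome 1, -0.22 on chromosome 8 and 0.20 on chromosome 11. These values are descriptions across genes, which are not independent replicates.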
